A study of Gallus gallus with 24 samples.

Results

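Late tissue was compared with early tissue within those RNA-seq libraries of interdigital region 3 of the chicken hindlimb that carried little of one transcript, ENSGALG00010011988. Libraries under 50 CPM (counts per 1000000 reads) of this transcript were kept, which left 11 of the 24 libraries of the time course. The late libraries were the 5 from embryos incubated for 7 days plus 8 or 11 hours, and the early libraries were the 6 from 7 days plus 4 or 6 hours. Of the late libraries 3 were at 8 h and 2 at 11 h, and of the early ones 3 were at 4 h and 3 at 6 h. The labels name no treatment, strain or genotype for these embryos, which were of HH30 to HH31 (Hamburger-Hamilton stages of chick development), and the tissue was stored in RNAlater before the region was cut out, per the labels' protocols. Neither separate embryos per library nor the sex of any embryo is given in the labels, so p-values measure only the spread between these samples.

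Interdigital region 3 is the mesenchyme between neighbouring digits of the foot. In the chick most of its cells die while the digits become free. Bone morphogenetic proteins, which signal through SMAD transcription factors, promote this death, and the study's title adds the making and scavenging of reactive oxygen species, whose build-up can damage mitochondria and other parts of the cell. In birds the female carries one Z and one W chromosome and the male a pair of Z chromosomes, so a transcript from the W chromosome alone would be present in females only. The marker had been proposed as such a transcript, with the low libraries as candidate males. Its chromosome and name could not be looked up, since none of the sources used here pairs these identifiers with names, so the libraries are called marker-low and marker-high and no sex is given to them. Pathway lists for bone morphogenetic proteins, reactive oxygen species and cell death could not be scored for the same reason.

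The marker chose the libraries, and its values are given as a description. In the late libraries it was at 5.36, 6.25 and 4.23 CPM at 8 h and at 5.36 and 3.62 CPM at 11 h. In the early libraries it was at 9.42, 5.90 and 5.26 CPM at 4 h and at 4.57, 8.97 and 7.80 CPM at 6 h. These levels rest on 14 to 48 reads per library, so the transcript was low but not at 0 in any of them. The library just inside the limit, replicate 2 at 4 h, had 9.42 CPM, and the one just outside it, the marker-high replicate 6 at 6 h, had 533.5 CPM. A limit of 20 or of 200 CPM would have kept the same 11 libraries.

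**Figure D1:**
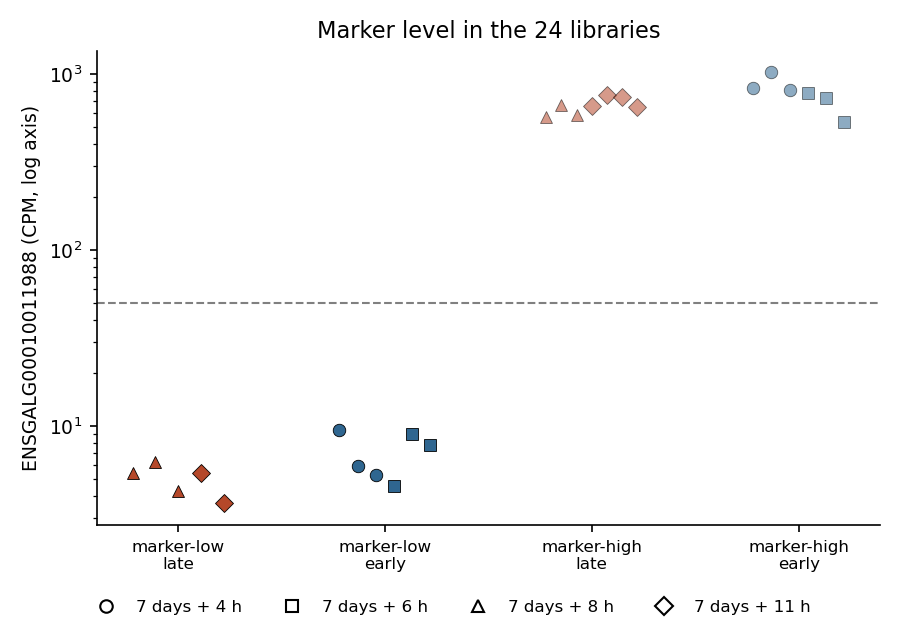
Level of the marker ENSGALG00010011988 in CPM (vertical, log axis) in the 24 libraries, by marker level and by late or early; each point is 1 library, its shape gives the time, and the dashed line is the limit of 50 CPM. The 11 marker-low libraries lie at 9.42 CPM or less and the 13 marker-high libraries at 533.5 CPM or more.

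The marker-low libraries were all sequenced to over 1000000 reads. The late libraries held 2983706 to 6912031 reads and the early ones 1794673 to 8134730, a difference in means that was smaller than the spread (exact permutation test, two-sided, p = 0.628). The 3 libraries of the series with under 1000000 reads are all marker-high. The labels number the libraries, and the numbers were divided here into a lower and an upper range, a division the labels do not name. The cut was placed at a number missing from the series. Other single numbers are missing within the lower range, so the numbers themselves do not mark this cut. Of the late libraries 2 of 5 belong to the upper range and of the early ones 2 of 6, so that late and early are nearly balanced over it.

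A set of 3 early libraries stood apart from the other 8. Over the 7162 genes averaging 10 CPM or more, the first principal component (20.9% of the variance) was at -20.5 in replicate 2 at 4 h, -13.3 in replicate 2 at 6 h and -38.2 in replicate 3 at 6 h. The 5 late libraries lay between 6.38 and 18.8 on it and the other 3 early ones between 3.43 and 12.4. The same 3 libraries had the most genes at 10 CPM or more, 7680, 7409 and 7552, against 6905 to 7238 in the other 8. They are also the 3 early libraries with the fewest reads, 3397637, 3342991 and 1794673, against 4370474 to 8134730 in the other early ones. When the reads of all 11 libraries were thinned at random to 1794673, the 3 still had the most such genes, 7724, 7516 and 7552, against 6979 to 7298 in the other 8, and they stayed at -22.6, -15.3 and -35.3 on the first component, against 2.00 to 20.3. In the 3 marker-high libraries with under 1000000 reads the number was 8148, 7908 and 7563. Over all marker-low libraries the number of such genes was 7018 ± 129 in late and 7332 ± 261 in early ones (SD, n = 5 and 6; exact permutation test, two-sided, p = 0.039, adjusted p = 0.14 over 7 such tests). In the marker-high libraries it was 7236 ± 372 in late and 7206 ± 534 in early ones (SD, n = 7 and 6; exact permutation test, p = 0.908). Late against early is also given without these 3 libraries for the counts of genes, the medians by level, the genes described and a 16-gene set. The steps between times and the difference between marker levels were not refitted without the 3 together. Nor were the intervals, the counts of genes without overlap or the comparison of signs with the marker-high libraries.

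**Figure D2:**
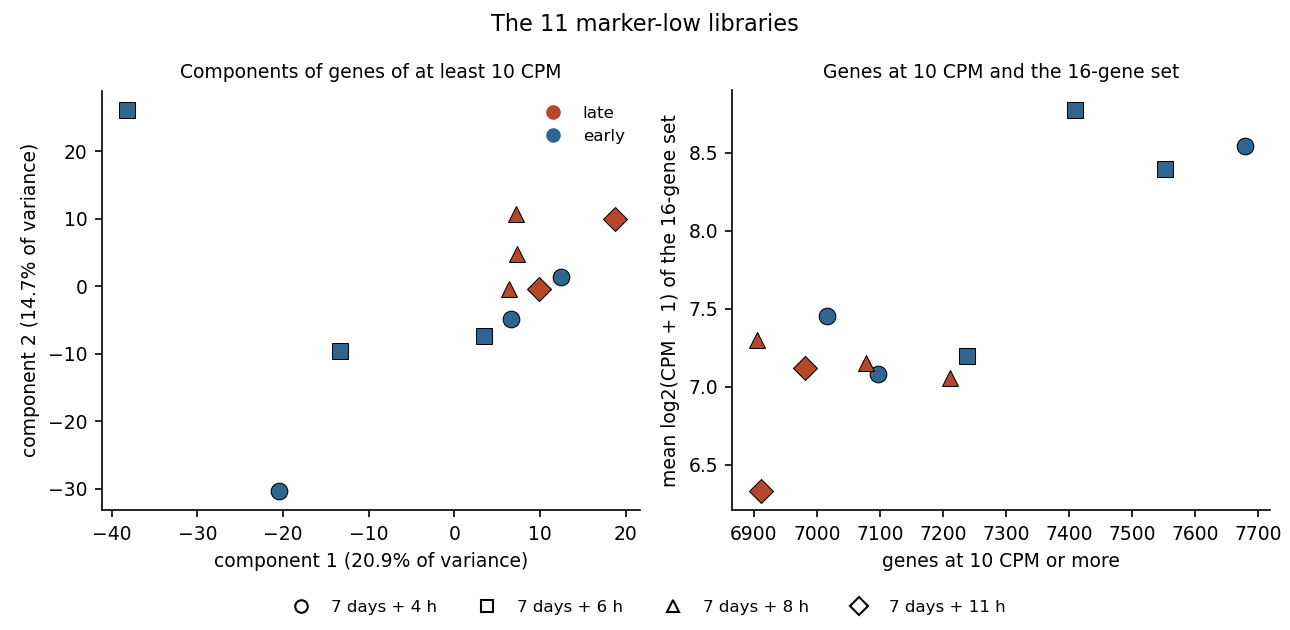
The 11 marker-low libraries, late in red and early in blue, with the time given by the shape. Left, the first principal component (20.9% of the variance) against the second (14.7%); right, the number of genes at 10 CPM or more against the mean log2(CPM + 1) of a 16-gene set described in the text. In both panels 3 early libraries lie away from the other 8. The set was chosen for high values in replicates 2 and 3 at 6 h, so their height in the right panel is partly set by that choice.

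Between late and early tissue no transcript of the marker-low libraries passed the threshold. Of 12147 genes tested, 0 had an adjusted p under 0.05 (0%; limma with Benjamini-Hochberg adjustment), and limma-voom on the recovered reads also called 0. An unadjusted p under 0.05 was reached by 990 genes (8.15%), of which 546 (4.49%) were higher late and 444 (3.66%) lower, where evenly spread p-values would give 607. Limma-voom gave 888 such genes. In tissue measured as a whole, fewer cells of a type and less RNA per cell cannot be told apart, here and in all that follows. Without the 3 early libraries that stood apart there were 0 calls and 689 genes at an unadjusted p under 0.05. The split into higher and lower depended on the scaling. With TMM factors (trimmed mean of M values) 55.2% of these genes were higher late, with median-ratio factors 46.7% and with library size alone 27.9%.

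The size of change that could have gone unseen was bounded from the 95% interval of each gene's difference on the log2(CPM + 1) scale. Of the genes averaging 100 CPM or more, it stayed inside a 2-fold change either way for 1168 of 1194 (97.8%) and within 1.5-fold for 1066 (89.3%). Among the 5968 genes at 10 to 100 CPM it lay within 2-fold for 4911 (82.3%) and within 1.5-fold for 1920 (32.2%). Below 10 CPM, where the pseudocount of 1 compresses changes, only 900 of 4985 genes (18.1%) were bounded within 2-fold. The intervals were taken gene by gene and are not corrected for the number of genes. For most weak transcripts the interval thus did not exclude a 2-fold change at this depth and number of libraries.

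The difference between late and early varied with the level of the gene. Its median was -0.07 on the log2 scale for genes under 10 CPM, 0.05 at 10 to 100 CPM, 0.10 at 100 CPM or more and 0.20 for the 50 most abundant genes, which together held 34.8% of the reads. Of these 50 genes, with mean levels of 3551 to 28395 CPM, 46 were higher late. An unadjusted p under 0.05 was reached by 29, all of them higher (13 higher and 1 lower with library size alone). None passed adjustment, and the log2 differences of the 50 ran from -0.34 to 0.33. Of all 1194 genes at 100 CPM or more, 176 (14.7%) reached such an unadjusted p, 150 of them higher late. With library size alone the 4 medians were -0.15, -0.05, -0.01 and 0.09, so that the sign at 10 to 100 CPM and at 100 CPM or more flipped with the scaling. A change of scaling moves all genes of a library by about the same amount and leaves the differences between levels nearly as they were. Without the 3 early libraries that stood apart the medians were -0.07, -0.01, 0.01 and 0.10. Of the 50 most abundant genes 44 were then higher late, and 5 were higher and 1 lower at an unadjusted p under 0.05. In the marker-high libraries the medians were -0.02, -0.01, -0.03 and 0.03. There 31 of the 50 most abundant genes were higher late, and 2 were higher and 0 lower at an unadjusted p under 0.05. Whether this trend with level differs between marker-low and marker-high libraries was not tested.

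**Figure D3:**
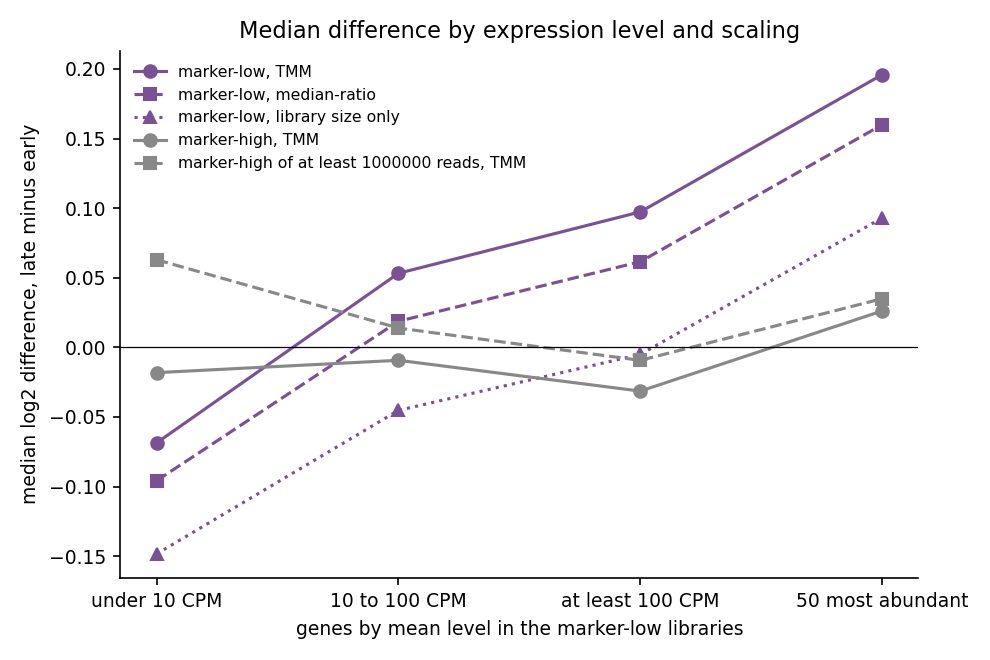
Median log2 difference, late minus early (vertical), of genes grouped by their mean level in the marker-low libraries, under 3 scalings of the 11 marker-low libraries (purple) and with TMM in all 13 marker-high libraries or the 10 with at least 1000000 reads (grey). With TMM the marker-low medians run from -0.07 to 0.20, and with library size alone from -0.15 to 0.09.

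**Figure D4:**
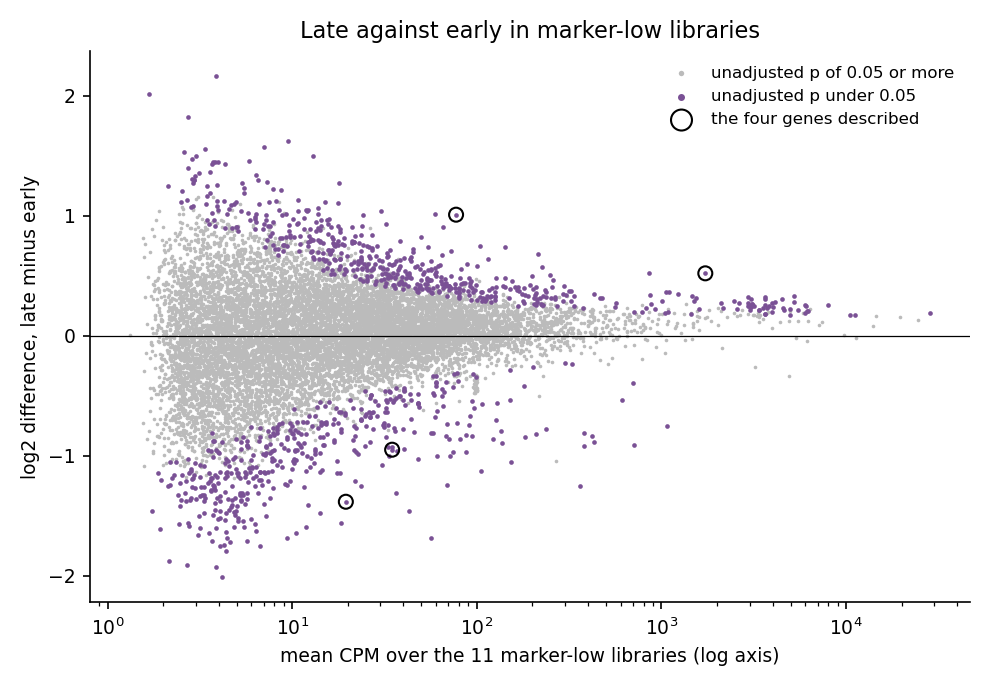
Log2 difference, late minus early (vertical), against the mean CPM over the 11 marker-low libraries (log axis) for the 12147 genes tested. Purple points have an unadjusted p under 0.05 (990 genes), none passed adjustment, and circles mark the 4 genes described by library.

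The smallest p of all belonged to ENSGALG00010018815, an abundant transcript whose role is not annotated in the sources used here. After TMM scaling it was at 1876, 1889 and 2218 CPM in the 8 h libraries and at 1982 and 2466 CPM in the 11 h libraries. In the early libraries it was at 1242, 1558 and 1398 CPM at 4 h and at 1643, 1540 and 1341 CPM at 6 h. Every late library lay above every early one. The difference was 0.52 ± 0.10 on the log2 scale (SE, 1.43-fold, adjusted p = 0.26, limma; exact permutation test, two-sided, p = 0.0043, the smallest that 5 against 6 libraries allow). All 4 genes described were chosen for a small p in these same libraries, so that their exact p-values here, which do not correct for the choice among 12147 genes, are descriptions. Without the 3 early libraries that stood apart the difference was 0.44 ± 0.10 (SE, adjusted p = 0.64, limma). Its mean was 1399 ± 158.2 CPM (SD) over the 3 libraries at 4 h and 1508 ± 153.2 CPM over the 3 at 6 h, then 1994 ± 194.1 CPM over the 3 at 8 h and 2224 ± 342 CPM over the 2 at 11 h. The difference was 0.61 within the lower range of library numbers and 0.38 within the upper one. Of the 7162 genes averaging 10 CPM or more, 59 (0.824%) had all late libraries above all early ones, and 8 (0.112%) had all below; of the 4 genes described here only ENSGALG00010018815 is among these.

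ENSGALG00010024624 was the other transcript chosen for higher late values. It stood at 136.8, 103.1 and 146.2 CPM at 8 h and at 60.1 and 97.1 CPM at 11 h in the late libraries, and at 47.7, 70.5 and 56.2 CPM at 4 h and 43.3, 35.4 and 61.3 CPM at 6 h in the early ones. All 3 libraries at 8 h lay above the early range, while replicate 3 at 11 h lay within it. The difference was 1.01 ± 0.21 on the log2 scale (SE, 2.01-fold, adjusted p = 0.28, limma; exact permutation test, p = 0.013). It was 0.89 ± 0.24 without the 3 early libraries that stood apart (SE, adjusted p = 0.66, limma). Without replicate 3 at 11 h it was 1.20 and passed (adjusted p = 0.049, limma), the one call of late against early in any fit that left out a single library. Over its 29 alternatives the adjusted p ran from 0.049 to 0.999.

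The transcripts chosen for lower late values were ENSGALG00010004592 and ENSGALG00010010128. ENSGALG00010004592 was at 5.66, 15.6 and 10.7 CPM at 8 h and at 8.23 and 8.68 CPM at 11 h, against 29.6, 14.1 and 24.6 CPM at 4 h and 30.3, 35.1 and 27.3 CPM at 6 h. The groups overlapped through replicate 4 at 4 h, which at 14.1 CPM lay below the late replicate 3 at 8 h. The difference was -1.38 ± 0.28 on the log2 scale (SE, adjusted p = 0.28, limma; exact permutation test, p = 0.0087). It was -1.15 ± 0.35 without the 3 early libraries that stood apart (SE, adjusted p = 0.66, limma).

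ENSGALG00010010128 was at 20.6, 22.8 and 30.9 CPM at 8 h and at 23.9 and 13.6 CPM at 11 h, against 48.2, 36.0 and 38.2 CPM at 4 h and 30.6, 58.2 and 52.0 CPM at 6 h. The groups touched at replicate 6 at 8 h (30.9 CPM) and replicate 1 at 6 h (30.6 CPM). The difference was -0.95 ± 0.22 on the log2 scale (SE, adjusted p = 0.34, limma; exact permutation test, p = 0.0087). It was -0.66 ± 0.26 without the 3 early libraries that stood apart (SE, adjusted p = 0.80, limma).

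**Figure D5:**
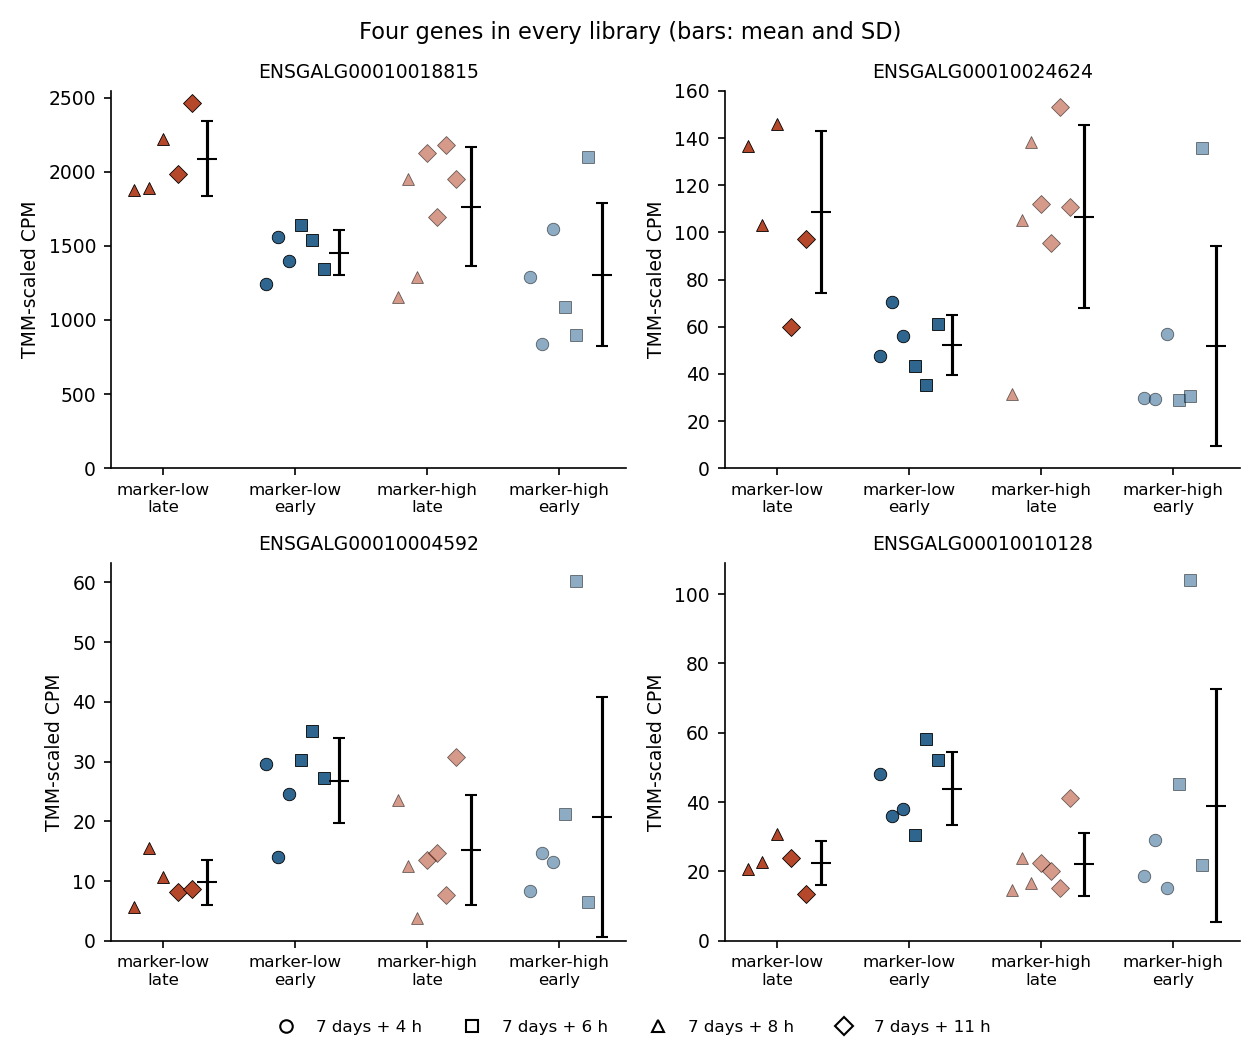
TMM-scaled CPM (vertical, linear from 0) of the 4 genes described, in late and early libraries of the marker-low and marker-high sets; each point is 1 library, its shape gives the time, and bars show the mean and SD. In the marker-low libraries the late values of ENSGALG00010018815 (1876 to 2466 CPM) lie wholly above the early ones (1242 to 1643 CPM).

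The 13 marker-high libraries took no part in choosing these genes and give their values in other samples. The exact permutation tests over all 13 compared means on the log2 scale, while levels are given as means in CPM. ENSGALG00010018815 averaged 1764 ± 401 CPM in the 7 late and 1305 ± 480 CPM in the 6 early marker-high libraries (SD; exact permutation test, two-sided, p = 0.076, adjusted p = 0.15 over the 4 genes), differing by 0.48 ± 0.20 on the log2 scale (SE, adjusted p = 0.89, limma). ENSGALG00010024624 averaged 106.6 ± 38.7 CPM in late and 51.9 ± 42.5 CPM in early ones (SD, n = 7 and 6; exact permutation test, p = 0.034, adjusted p = 0.14), differing by 1.18 ± 0.35 on the log2 scale (SE, adjusted p = 0.89, limma). Among the 10 marker-high libraries with at least 1000000 reads the log2 differences of these 2 genes were 0.58 ± 0.17 and 1.30 ± 0.31 (SE, adjusted p = 0.45 and 0.30, limma). Their exact permutation p was 0.048 and 0.040, each 0.095 after adjustment over the 4 genes. Both genes had higher late means in either set of libraries, though neither passed after adjustment in the marker-high set.

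The 2 transcripts with lower late values did not differ beyond the spread in the marker-high libraries. As above, the exact tests over all these libraries compared means on the log2 scale. ENSGALG00010004592 averaged 15.2 ± 9.22 CPM in late and 20.7 ± 20.1 CPM in early ones (SD, n = 7 and 6; exact permutation test, p = 0.653). ENSGALG00010010128 averaged 22.1 ± 9.15 CPM in late and 39.0 ± 33.6 CPM in early ones (SD, n = 7 and 6; exact permutation test, p = 0.237). Both early means rest largely on replicate 5 at 6 h, a library of 747982 reads with 60.2 and 104.1 CPM. Leaving out the 3 shallow libraries, the log2 differences were 0.26 ± 0.36 and -0.05 ± 0.30 (SE; exact permutation p = 0.532 and 0.905). For ENSGALG00010004592 the sign is then the opposite of that in the marker-low libraries.

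In the fit of all 24 libraries no gene's change was shown to be particular to the marker-low libraries. The test of the difference between marker-low and marker-high libraries in late against early called 0 of 12147 genes (0%; limma, all 24 libraries), with 521 (4.29%) at an unadjusted p under 0.05 and 651 by limma-voom, which also called 0. For ENSGALG00010004592 the marker-low minus the marker-high difference was -1.13 ± 0.60 on the log2 scale (SE, 95% interval -2.35 to 0.08, adjusted p = 0.99, limma). For ENSGALG00010018815 the difference between the sets was 0.04 ± 0.24 (SE, 95% interval -0.46 to 0.54), and for ENSGALG00010024624 it was -0.17 ± 0.46 (SE, 95% interval -1.11 to 0.77). Within the lower range of library numbers alone, the test of the difference between the sets called 1 gene (adjusted p = 0.00051, limma). Its difference was lower in the marker-low libraries, and this fit was chosen after seeing the data. Within the marker-high libraries alone late against early called 0 genes (0%), with 667 (5.49%) at an unadjusted p under 0.05.

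The direction of change was compared gene by gene between the 2 sets of libraries, which share no library. Of the 7162 genes with at least 10 CPM, 3849 (53.7%) had the same sign of difference in both (Pearson's r = 0.15, Spearman's rho = 0.13, across genes, which are not independent replicates). Of the 664 with an unadjusted p under 0.05 in the marker-low libraries, 429 (64.6%) had the same sign in the marker-high ones. Of these 664, 61 also had an unadjusted p under 0.05 in the marker-high libraries with the same sign and 12 with the opposite one. With the 10 marker-high libraries of at least 1000000 reads the same-sign shares were 55.4% of all and 67.2% of the 664. These shares are descriptions of the libraries at hand and carry no test.

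Late against early was also divided into its times and into the ranges of library numbers. Between 11 h and 4 h, which lie within the lower range, 0 of 12147 genes passed (0%; limma, 4 time means), with 564 (4.64%) at an unadjusted p under 0.05, 298 of them higher, and 0 calls by limma-voom (715 at an unadjusted p under 0.05). Without replicate 6 at 11 h the 564 became 335, of which 116 were higher and 219 lower. Between 8 h and 6 h, 2 genes passed (0.0165%; limma), 1 higher and 1 lower, with 852 (7.01%) at an unadjusted p under 0.05. The higher one was ENSGALG00010024624, at 128.7 ± 22.6 CPM at 8 h against 46.7 ± 13.3 CPM at 6 h (SD, n = 3 each), differing by 1.46 ± 0.25 on the log2 scale (SE, adjusted p = 0.048, limma). The call lay close to the threshold. It was kept in 7 of 15 settings other than leaving out 1 library, some of which repeat the main fit. Limma-voom was among them (adjusted p = 0.032). The call was lost with median-ratio factors (adjusted p = 0.053), library size alone (0.055), a pseudocount of 0.5 (0.063) and the range as a term (0.067), all by limma. It was also lost with no filter (0.42), only the 2 times (0.088), a replicate block (0.62) and the upper range alone (0.15). Of the 11 fits that left out 1 library, 7 lost it (0.032 to 0.50 over the 11). The transcript was at 58.1 ± 11.5 CPM at 4 h and 78.6 ± 26.2 CPM at 11 h (SD, n = 3 and 2). In the marker-high libraries it averaged 91.8 CPM at 8 h and 65.0 CPM at 6 h, and the 8 h against 6 h differences of the 2 sets were not shown to differ (0.83 ± 0.63, SE, adjusted p = 0.79, limma).

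The lower one, chosen after its values were seen and not among the genes described above, is an abundant transcript with a mean of 612 CPM. Its level was 244.7, 359.4 and 427.4 CPM in the 3 marker-low libraries at 8 h, against 745.4, 683.8 and 661.0 CPM in the 3 at 6 h. All libraries at 8 h lay below all those at 6 h, and the log2 difference was -1.05 ± 0.16 (SE, adjusted p = 0.030, limma). This call was kept in 12 of 15 settings other than leaving out 1 library, some of which repeat the main fit. Limma-voom was among them (adjusted p = 0.020). The call was lost with no filter (adjusted p = 0.42), with only the 2 times (0.088) and with a replicate block (0.10), all by limma. It was also lost when replicate 1, 2 or 3 at 6 h or replicate 1 at 8 h was left out (0.0068 to 0.20 over the 11 fits that left out 1 library). The low level was seen at 8 h only among the marker-low times, since the libraries at 4 h held 617.7 to 750.2 CPM and those at 11 h 787.9 and 790.8 CPM. Between 11 h and 8 h this gene was the 1 call (0.00823% of genes), at 1.23 ± 0.18 on the log2 scale (SE, adjusted p = 0.015, limma), with 490 genes (4.03%) at an unadjusted p under 0.05. This step uses the same 3 libraries at 8 h as the one before it, so the 2 calls of the gene are not independent. The call was also made by limma-voom. It was lost with no filter, with the range as a term (adjusted p = 0.33, limma) and with a replicate block (adjusted p = 0.10, limma). It was also lost without replicate 1 at 8 h or either library at 11 h (0.0034 to 0.58 over the 11 fits that left out 1 library). Among the marker-high libraries at 8 h the gene was at 423.7, 959.7 and 387.3 CPM, the low values falling in the 2 libraries with under 1000000 reads, and the 8 h against 6 h difference there was -0.52 ± 0.25 (SE, adjusted p = 0.38, limma). The difference between the 2 sets was -0.54 ± 0.35 (SE, adjusted p = 0.77, limma). Between 6 h and 4 h, 0 genes passed (0%; limma), with 634 (5.22%) at an unadjusted p under 0.05, and limma-voom also called 0 (522 at an unadjusted p under 0.05). Without replicate 1 at 6 h, which leaves at 6 h only replicates 2 and 3 of the libraries that stood apart, 20 genes passed, all lower at 6 h, and without replicate 3 at 6 h 1 gene passed, higher at 6 h (limma).

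Within the ranges the comparison rests on few libraries. In the lower range, with 3 late and 4 early libraries, 1 gene was lower late (limma), and in the upper range, with 2 late and 2 early libraries, 16 genes were lower and 0 higher. The upper range holds libraries of 8 h and 6 h only, so that this is also the 8 h against 6 h comparison within it, and its 2 early libraries, replicates 2 and 3 at 6 h, are among the 3 that stood apart. With the range as a term in the fit of all 11 libraries 0 genes passed. The 16 genes averaged 48.1 to 1074 CPM and differed by -2.22 to -1.05 on the log2 scale in the upper range. All 16 were also lower late in the 7 libraries of the lower range, 10 of them at an unadjusted p under 0.05, where 804 of all 12147 genes (6.62%) had such a p and 56.7% of the genes averaging 10 CPM or more had the same sign in both ranges. Those 7 libraries include replicate 2 at 4 h, the remaining 1 of the 3 that stood apart, and were not fitted without it. Most of the 16 genes moved together, as described below, so the genes are not separate observations. In the fit of the 11 libraries, which include the 4 the genes were chosen on, all 16 were lower, by -1.26 to -0.53 with a median of -0.89, beside a median of 0.03 over all genes tested, and 0 of them passed (smallest adjusted p = 0.34, limma).

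Of these 16 genes 15 moved together from library to library. Over the 11 marker-low libraries the median correlation of a pair was 0.93 (120 pairs), and 94 pairs exceeded 0.8; the points share library depth and scaling, and the genes were chosen on 4 of these libraries, so no test is given. One of the 16, the abundant transcript that was low at 8 h, followed the others least, with a mean correlation of 0.13 to them, against 0.75 to 0.89 for the other 15. The pattern was not limited to the set. Of the 7146 other genes averaging 10 CPM or more, 94 (1.32%) correlated above 0.8 with the mean of the set and 108 below -0.8. The mean log2(CPM + 1) of the set was 7.05, 7.15 and 7.30 at 8 h and 7.12 and 6.33 at 11 h in the late libraries. In the early libraries it was 8.54, 7.08 and 7.45 at 4 h and 7.19, 8.78 and 8.39 at 6 h. The 3 high values are those of replicate 2 at 4 h and replicates 2 and 3 at 6 h, the libraries that stood apart on the first component. The genes were chosen as high in replicates 2 and 3 at 6 h, and only replicate 2 at 4 h took no part in the choice. The other 3 early libraries lay within or just above the late range. Without the 3 libraries that stood apart all 16 genes were lower late, by -0.57 to -0.10 with a median of -0.20, beside -0.02 over all genes tested. This fit keeps replicates 1 and 3 at 8 h, on which the genes were chosen as low, so the shared sign is partly set by that choice. Of the 16 genes 1 had an unadjusted p under 0.05, and 0 passed (smallest adjusted p = 0.87, limma). Thinned to 1794673 reads the 3 libraries had set means of 8.54, 8.77 and 8.42, against 6.32 to 7.44 in the other 8. In the marker-high libraries the set ran from 6.55 to 8.68 in late and from 6.25 to 8.62 in early ones. The highest value of each was in a library with under 1000000 reads, while replicate 5 at 8 h, also under 1000000 reads, was at 6.75. Across the marker-high libraries the 16 genes differed by a median of -0.02, and 10 of 16 were lower late, with 0 at an unadjusted p under 0.05 (limma). The medians of all genes there were -0.01 at 10 to 100 CPM and -0.03 at 100 CPM or more. What these genes encode is not annotated in the sources used here.

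Spread within the groups was of the order of the differences. For genes with at least 10 CPM the median SD on the log2 scale was 0.31 among late and 0.36 among early libraries, and the median size of the late against early difference was 0.17. Pairs of libraries correlated by 0.926 to 0.952 when both were late and by 0.899 to 0.954 when both were early. Pairs of a late and an early library correlated by 0.891 to 0.958, a range that covers both. The medians were 0.946 over 10 pairs of late libraries, 0.922 over 15 pairs of early ones and 0.928 over 30 pairs of a late and an early one.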

How the data were processed

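Per the labels' protocols, libraries were made by Lasy-Seq ver. 1.1, a multiplexed RNA-seq method. Tools listed in the submitters' processing notes are BWA 0.7.17-r1188, Salmon and fastp 0.21.0; for their roles, the build and the gene models nothing is given in the sources used here. Values as deposited are natural log values, ln(CPM + 1), made by the authors: exp(value) - 1 summed to 1000000 in each column. Of 406811 values above 0, all but 2 were whole multiples of 1 read within 0.01 read, so reads were recovered; they gave the depths, the TMM factors (trim of 30% of M and 5% of A) and the limma-voom alternative. The design named a log-scale test for this unit: log2(CPM/TMM factor + 1), limma 3.58.1 in R 4.3.3, intensity trend, Benjamini-Hochberg over 12147 genes, threshold 0.05. The pseudocount of 1 understates changes of weak genes. Tests covered genes with 15 reads or more in all and 2.23 CPM (10 reads at the median depth) or more in 5 of the 11 marker-low libraries. Late against early was fitted on these 11 libraries, the times as 4 means, and the difference between marker levels on all 24. Lists of gene symbols were not scored, because 0 of 30108 identifiers matched the 25635 genes of the reference table. The genes described are the 2 with higher and the 2 with lower late values of smallest p and at least 10 CPM. The members and rules were chosen with earlier results of these data known. The fits without the 3 libraries that stood apart and within number ranges, the alternatives for the steps 4 h to 6 h and 8 h to 11 h, the thinning and the 16-gene set were chosen after seeing the data. Over the 60 pairs of libraries of 1 time none were copies (chi-square per degree of freedom at least 8.08). The fit was tested on simulated data. Intervals cover the spread between libraries.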

Additional observations from a re-analysis of the deposited data

Results flagged for a closer look

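Of 26 sets of 5 to 7 values, 1 per library, 5 had an end value far off the rest, where chance gives about 1 in 20. In the early marker-low libraries the 10 most abundant genes held 16.4% of the reads of replicate 3 at 6 h, against 15.03% at most in the others. The others lie in marker-high libraries. Among the late ones replicate 5 at 11 h held ENSGALG00010010128 at 41.2 CPM, with 23.97 CPM in the next. Among the early ones replicate 6 at 6 h held ENSGALG00010024624 at 135.6 CPM, with 57.1 CPM in the next. Replicate 5 at 6 h, with 747982 reads, held ENSGALG00010004592 at 60.2 CPM, against 21.2 CPM in the next, and ENSGALG00010010128 at 104.1 CPM, against 45.3 CPM in the next.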

How the results depend on the processing

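For late against early in the marker-low libraries, 16 of 18 alternatives other than leaving out one library gave 0 calls. The lower number range alone gave 1 and the upper range 16. Among the 18, the marker limits of 20 and 200 CPM and the removal of libraries under 1000000 reads keep the same 11 libraries and so repeat the main fit. The marker limits repeat the main fit in every comparison they were run for. Leaving out each library gave 0 to 1 calls, the 1 being ENSGALG00010024624 without replicate 3 at 11 h. The unadjusted count was 512 when all 24 libraries set the error and 1480 with no filter, where 25880 genes were tested. The difference between marker levels gave 1 call within the lower number range and 0 under its 13 other alternatives and with each library left out (0 to 0). For 11 h against 4 h every alternative run gave 0 calls, leaving out libraries included (0 to 0). With the replicate block 919 genes had an unadjusted p under 0.05, against 564 in the main fit. The marker-low libraries at 11 h and 4 h share no replicate number, so this blocked difference came only through those at 6 h and 8 h. For 11 h against 4 h library size alone moved the median of all genes to -0.09 on the log2 scale, against 0.03 with TMM. For 8 h against 6 h the 2 calls became 1 with median-ratio factors, library size alone, a pseudocount of 0.5 or the range term, 0 with no filter or only the 2 times, and 16 in the upper range. Leaving out each library there gave 0 to 3 calls, with 0 without replicates 1 or 2 at 6 h or replicate 1 at 8 h; the cause was not tested. For 11 h against 8 h the 1 call became 0 with no filter or the range term and 2 by limma-voom, and leaving out each library gave 0 to 3; for 6 h against 4 h, 7 other settings gave 0 calls and leaving out each library 0 to 20. Fitted with a replicate block, 0 genes passed in each comparison but 11 h against 8 h, where another gene, lower at 11 h, was the 1 call. Whether the numbers pair these libraries cannot be told from the values. Only 3 pairs of a late and an early library share a number, with 2 numbers between them, which is too few to decide. Of these pairs 0 had deviations that correlated above 0.1. The signs of the 4 genes described were kept under each of their 29 alternatives, which include those that repeat the main fit. Depth limits what genes under 10 CPM can show.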
